A study of Mus musculus with 6 samples.

Results

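The genes described here are 42 markers of the main glial cells of the brain, 24 of astrocytes and 18 of oligodendrocytes, and the question is where and how their DNA methylation was listed as different in early mouse embryos. Regions were chosen by gene name alone: every listed region whose associated gene is one of the 42 was taken, in any cytosine context. They were counted once by position and context. The 42 genes themselves were chosen with earlier results of these data known. In all, 17 of the 42 genes carried 46 regions, out of 9707 distinct regions and 4040 gene names in the deposited table.

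The regions compare single C57BL/6 embryos at embryonic day 4.5, the late blastocyst. As fertilised eggs they received sperm small RNAs at 2 ng/µl by microinjection, and they were collected about 108 h later. The RNA came from mice with stress-induced depression for 3 of them (depressed-RNA embryos) and from normal mice for the other 3 (normal-RNA embryos), so that all were injected and the groups differ by the donor of the RNA. No source used here gives the number of donors, any pooling of their RNA or the sex of the embryos.

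Whole-genome bisulfite sequencing was used, in which a cytosine without methylation appears as thymine and one that is methylated stays a cytosine. Cytosines fall into 3 contexts: CG, CHG and CHH, where H is any base but G. In mammals nearly all stable methylation sits in CG, and CHG and CHH methylation is scarce in most tissues, with neurons and oocytes among the known exceptions. A level is the share of cytosines still read as cytosine, and its value cannot tell a methylated cytosine from one that was not converted. Each value below is the authors' mean level of a group over a region, in percent, and averages over all cells of the embryos, so that the share of cells and the level per cell cannot be told apart. The table holds 0 columns of values per embryo and no read depth. No level therefore has a spread or an interval of its own, and whether a difference exceeds the variation between embryos could not be tested.

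Astrocytes take up glutamate and potassium around synapses, carry lipids and secrete proteins that shape synapses. Oligodendrocytes wrap axons in myelin, a stack of membrane held together by a small set of abundant proteins. Both arise in the developing nervous system, long after the blastocyst, and the genes are named as markers for their RNA in the brain. RNA was not measured in these embryos, so that the markers' expression could not be checked.

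Most regions at the glial markers were lower in depressed-RNA embryos, and all of those but the CG region of Mobp lay in CHG or CHH context. Of the 46 regions, 39 were lower and 7 higher in depressed-RNA embryos. The lower regions had levels between 0.0386 and 2.28% in depressed-RNA embryos and between 11.8 and 72.8% in normal-RNA embryos. Regions are named lower by this same difference, and the ranges span regions, not embryos. Over all lower CHG regions, levels reached 25.5% in depressed-RNA embryos and began at 2.76% in normal-RNA embryos. For all lower CHH regions these limits were 92.5% in depressed-RNA embryos and 2.50% in normal-RNA embryos. Exons or untranslated regions (UTRs) held 34 of the 39, and 28 were listed for a 3′ UTR. The largest differences were those of Mobp, Gfap and Gpm6a, all at their 3′ parts. Slc1a2, Mbp and Mobp together held 22 of the 46 regions, and 4 genes (Gpm6a, Mbp, Qk and Slc1a3) had regions of both directions.

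Read against all genes, 17 of 42 markers (40.5%) had a region of any kind, compared with 18.0% of 21900 protein-coding RefSeq genes. A lower CHG region was listed for 12 markers (28.6%), against 6.40% of protein-coding genes, and a lower CHH region for 11 (26.2%), against 5.37%. Lower CHG or CHH regions together named 15 markers (35.7%), against 8.25% of protein-coding genes, and in an exon or UTR 14 markers (33.3%), against 5.98%. Higher CHH regions were listed for 5 markers (11.9%), near the 9.11% of all protein-coding genes. A higher CHG region was listed for 1 marker, against 0.758% of protein-coding genes. A lower CG region was listed for 1 marker (2.38%), against 2.54%, and a higher CG region for 0, against 0.0411%. In CG context, where most mammalian methylation lies, the share was thus near that of all genes. The markers were chosen with earlier results of these data known, so that these shares describe the list and were not tested. Within the markers, gene length moves with these counts. The 15 markers with a lower region had a median length of 34981 bp, and the 25 without any region 8734 bp. All 42 markers had a median of 12862.5 bp, below the 17146 bp of all protein-coding genes. The part of length in the counts was not tested. Lower CHG or CHH regions in an exon or UTR were also listed for 11 of 30 reference genes that most cells express (36.7%) and for 15 of 30 neuron genes (50.0%). Whether the cytosines of the lower regions were methylated in the DNA of normal-RNA embryos was not tested, since the table holds no reads and no conversion rate.

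**Figure D1:**
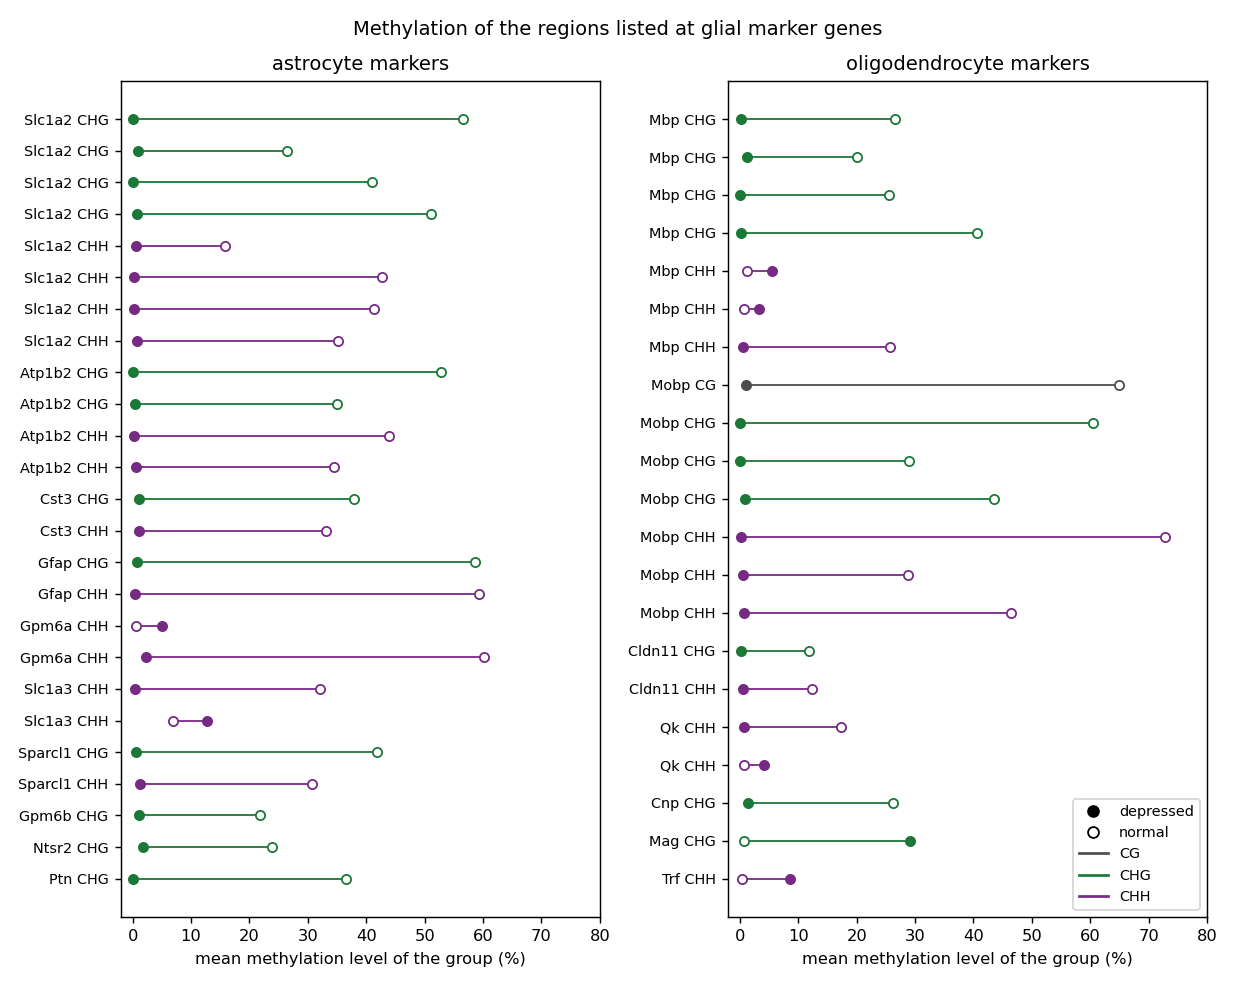
Mean methylation level of each group (percent, horizontal axis) at each of the 46 regions, 25 at astrocyte and 21 at oligodendrocyte markers; filled points are depressed-RNA embryos, open points normal-RNA embryos, and colours give the cytosine context. In the 39 lower regions depressed-RNA embryos sit at or below 2.28%, while normal-RNA embryos reach 72.8% at Mobp.

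A promoter was listed for 5 of the markers' regions, the CHG and CHH regions at the start of Atp1b2, a CHG region of Mbp, and a CG and a CHH region of Mobp, for which another entry's promoter was listed. These were 9.52% of the lower CHG regions, against 16.1% at named genes, and 11.8% of the lower CHH regions, against 15.97%. RefSeq promoter windows (GRCm38.p6, which has mm10 coordinates) matched 32 of the 42 markers, in 40 windows from 250 bases before to 50 after a start, and 0 of the 40 overlapped a listed region. Of all 32851 windows, 63 (0.192%) did. At that share 40 windows are too few to expect an overlap, so that 0 of 40 tells nothing about the markers' promoters. Atp1b2, the 1 marker with a region listed for its transcription start, was not among the matched genes. The 250 bases before the start of Gfap (chr11:102897201-102897450, minus strand) and of Mobp (chr9:120149492-120149741, plus strand) are printed 5′ to 3′, since these genes had the highest CHG levels of normal-RNA embryos, both away from the start of the gene. Capitals mark each cytosine in CHG context on this strand, the first letter of CAG, CTG or CCG, motifs that may overlap one another and were read on the printed strand alone.
Gfap: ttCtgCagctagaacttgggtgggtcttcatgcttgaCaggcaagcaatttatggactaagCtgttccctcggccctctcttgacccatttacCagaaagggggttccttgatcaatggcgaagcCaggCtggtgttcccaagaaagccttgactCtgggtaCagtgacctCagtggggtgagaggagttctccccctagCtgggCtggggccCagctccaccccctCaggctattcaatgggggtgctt
Mobp: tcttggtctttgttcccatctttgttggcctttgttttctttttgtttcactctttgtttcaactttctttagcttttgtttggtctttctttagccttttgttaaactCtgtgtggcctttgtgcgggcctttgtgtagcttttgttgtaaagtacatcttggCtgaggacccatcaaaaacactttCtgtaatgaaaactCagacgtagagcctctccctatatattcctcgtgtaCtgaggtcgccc
The Gfap stretch holds 14 such cytosines and 2 CpGs, and that of Mobp 5 and 4. At least 1 of the 3 motifs occurs in 99.98% of all 32851 windows of this length, with a median of 15 in all and of 17 at the markers. CHG cytosines were therefore present to be read at these promoters. A missing region does not show equal levels, since coverage and the rule for listing a region are unknown.

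Astrocyte structure and ion balance were represented by Gfap, Aqp4, Atp1b2 and Gja1, of which Gfap and Atp1b2 had regions. Gfap (ENSMUSG00000020932), the intermediate filament protein by which astrocytes are stained, had 1 CHG region in its 3′ UTR (mm10, chromosome 11, 102888037 to 102888279, 15 cytosines). Its level was 0.712% in depressed-RNA embryos against 58.6% in normal-RNA embryos. The CHH region over the same stretch (102888024 to 102888367, 43 cytosines) was at 0.421% in depressed-RNA embryos and 59.3% in normal-RNA embryos. Both contexts of Gfap thus stood near 0 in depressed-RNA embryos and high in normal-RNA embryos.

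Atp1b2 (ENSMUSG00000041329), the β subunit of the sodium pump that is typical of glia, was listed at both of its ends on chromosome 11. In the 3′ UTR, the CHG region (69600379 to 69600657, 17 cytosines) was at 0.0647% in depressed-RNA embryos against 52.8% in normal-RNA embryos, and the CHH region (69600381 to 69601082, 79 cytosines) at 0.184% in depressed-RNA embryos and 43.9% in normal-RNA embryos. At the start of the gene, the CHG region (69605490 to 69605984, 34 cytosines) covered the promoter, the transcription start, the 5′ UTR and a CpG island, at 0.366% in depressed-RNA embryos against 34.9% in normal-RNA embryos. The CHH region there (69605519 to 69606009, 99 cytosines) was at 0.579% in depressed-RNA embryos and 34.5% in normal-RNA embryos. Among the markers, Atp1b2 alone had a region listed for a transcription start. No CG region was listed for the gene. Aqp4, the water channel of astrocyte endfeet, and Gja1, the gap junction protein connexin 43, had no listed region.

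The glutamate transporter genes held all 10 regions listed among the genes of glutamate uptake and metabolism. Slc1a2 (ENSMUSG00000005089) encodes GLT-1, the main glutamate uptake protein of the forebrain, and carried 8 regions on chromosome 2, more than any other marker, all of them lower. In its 3′ UTR, CHG levels were 0.876% in depressed-RNA embryos against 26.4% in normal-RNA embryos at 102785744 to 102785972, and 0.102% in depressed-RNA embryos and 41.1% in normal-RNA embryos at 102787048 to 102787213. Another CHG region of the 3′ UTR (102789854 to 102789995) was at 0.756% in depressed-RNA embryos against 51.05% in normal-RNA embryos. The 4 CHH regions, between 102783596 and 102790334, had 0.19 to 0.741% in depressed-RNA embryos and 15.8 to 42.7% in normal-RNA embryos. Along the 3′ UTR normal-RNA embryos thus varied between regions, while depressed-RNA embryos stayed under 1% in all of them. The remaining CHG region lay in an intron (102676988 to 102677069, 7 cytosines), at 0.0517% in depressed-RNA embryos against 56.6% in normal-RNA embryos.

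Slc1a3 (ENSMUSG00000005360), the GLAST transporter of radial glia and cerebellar astrocytes, had regions of both directions on chromosome 15. A CHH region in the 3′ UTR (8635180 to 8635625, 83 cytosines) was at 0.393% in depressed-RNA embryos and 32.01% in normal-RNA embryos. An intronic CHH region (8669423 to 8669618, 77 cytosines) went the other way, at 12.6% in depressed-RNA embryos against 6.87% in normal-RNA embryos. The enzyme genes Glul (glutamine synthetase) and Aldoc (aldolase C) and Ndrg2 had no listed region.

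Of 6 genes for secreted or lipid-carrying proteins, Cst3, Sparcl1 and Ptn had regions, all lower. Cst3 (ENSMUSG00000027447), cystatin C, an inhibitor of cysteine proteases, had a CHG region in its 3′ UTR (chromosome 2, 148871858 to 148871989, 16 cytosines) at 1.15% in depressed-RNA embryos and 37.9% in normal-RNA embryos. Its CHH region began at the same place and ran into the gene body (148871859 to 148873653, 62 cytosines), at 1.04% in depressed-RNA embryos against 33.02% in normal-RNA embryos. Sparcl1 (ENSMUSG00000029309), hevin, which astrocytes secrete to promote synapses, had overlapping CHG (chromosome 5, 104092659 to 104093008, 20 cytosines) and CHH regions (104092650 to 104093281, 124 cytosines) in an exon. The CHG level was 0.639% in depressed-RNA embryos and 41.9% in normal-RNA embryos, and the CHH level 1.24% in depressed-RNA embryos against 30.7% in normal-RNA embryos. The CHH region of Sparcl1 had the largest absolute value of the authors' region statistic among all 46 regions. Ptn (ENSMUSG00000029838), the growth factor pleiotrophin, had a short CHG region in an intron (chromosome 6, 36809369 to 36809454, 6 cytosines) at 0.0817% in depressed-RNA embryos and 36.6% in normal-RNA embryos. Sparc, and Apoe and Clu, which encode lipid carriers that astrocytes secrete, had no listed region.

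Among receptors and membrane proteins, Ntsr2 (ENSMUSG00000020591), a neurotensin receptor gene, had a CHG region in its 3′ UTR (chromosome 12, 16659987 to 16660120, 9 cytosines) at 1.74% in depressed-RNA embryos against 23.8% in normal-RNA embryos. Gpm6a (ENSMUSG00000031517), a membrane glycoprotein of the proteolipid family, had a CHH region in its 3′ UTR (chromosome 8, 55058959 to 55059983, 42 cytosines) at 2.28% in depressed-RNA embryos and 60.2% in normal-RNA embryos. An intronic CHH region of Gpm6a (55033000 to 55033169, 99 cytosines) was higher, at 4.97% in depressed-RNA embryos against 0.522% in normal-RNA embryos. Its relative Gpm6b (ENSMUSG00000031342) had a CHG region of 6 cytosines over an exon and 5′ UTR inside the gene (chromosome X, 166344846 to 166344935), at 1.02% in depressed-RNA embryos and 21.8% in normal-RNA embryos. Gpr37l1 had no listed region. All 5 metallothionein and small binding protein genes (Mt1, Mt2, Mt3, S100b and Fabp7) were without one.

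Genes of the myelin sheath carried 18 of the 46 regions, at 5 of 7 genes, while 18.0% of all protein-coding genes had a region. Mbp and Mobp held 7 each, Cldn11 2, Cnp 1 and Mag 1, the last in the other direction. Mobp (ENSMUSG00000032517), which encodes a small basic protein of compact myelin, was the sole marker listed in all 3 contexts, with 7 lower regions on chromosome 9. At the end of the gene, the CG region (120181163 to 120181248, 6 cytosines) was at 1.05% in depressed-RNA embryos against 64.8% in normal-RNA embryos. The CHH region that covers it (120180335 to 120181256, 73 cytosines) was at 0.725% in depressed-RNA embryos and 46.5% in normal-RNA embryos, and the CHG region inside it (120180382 to 120180553, 10 cytosines) at 0.829% in depressed-RNA embryos against 43.5% in normal-RNA embryos. The CG and CHG regions do not overlap each other and share only the CHH region around them. The levels of all 3 regions were near 0 in depressed-RNA embryos and high in normal-RNA embryos, as read after conversion. Further upstream, in a stretch listed for exon, intron and 3′ UTR, the CHG region (120174609 to 120174803, 11 cytosines) was at 0.0398% in depressed-RNA embryos and 60.4% in normal-RNA embryos. The CHH region there (120174629 to 120174797, 35 cytosines), at 0.213% in depressed-RNA embryos against 72.8% in normal-RNA embryos, had the largest difference of all member regions, -72.6 percentage points. The last pair of Mobp, at 120175843 to 120175986, had lower levels in normal-RNA embryos than the others. Its CHG region was at 0.0386% in depressed-RNA embryos and 28.9% in normal-RNA embryos. The CHH region of the pair was at 0.538% in depressed-RNA embryos against 28.8% in normal-RNA embryos.

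Mbp (ENSMUSG00000041607), myelin basic protein, which compacts the myelin membrane, had 5 lower and 2 higher regions on chromosome 18. A 3′ UTR held a CHG region (82585458 to 82585580, 12 cytosines) at 0.151% in depressed-RNA embryos and 40.6% in normal-RNA embryos. An intronic stretch was listed in both contexts, CHG (82582053 to 82582143, 6 cytosines) at 0.0634% in depressed-RNA embryos against 25.5% in normal-RNA embryos, and CHH (82582050 to 82582237, 41 cytosines) at 0.522% in depressed-RNA embryos and 25.7% in normal-RNA embryos. The CHG region at 82562093 to 82562233, listed for a promoter and an intron of Mbp, was at 1.21% in depressed-RNA embryos against 20.1% in normal-RNA embryos. The fourth CHG region spread 19 cytosines over 3304 bp (82554621 to 82557924), at 0.128% in depressed-RNA embryos and 26.5% in normal-RNA embryos, and its level rests on a sparse set of sites. The 2 higher CHH regions lay in introns, at 5.56% in depressed-RNA embryos against 1.22% in normal-RNA embryos (82532400 to 82532568) and at 3.22% in depressed-RNA embryos and 0.715% in normal-RNA embryos (82538922 to 82539089). Lower and higher regions of Mbp were thus at different places, and the higher ones had small differences.

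Cldn11 (ENSMUSG00000037625), the claudin of myelin tight junctions, had the lowest levels of normal-RNA embryos among the lower regions. In its 3′ UTR on chromosome 3 the CHG region (31163346 to 31163488, 9 cytosines) was at 0.124% in depressed-RNA embryos against 11.8% in normal-RNA embryos, and the CHH region (31163325 to 31163737, 72 cytosines) at 0.553% in depressed-RNA embryos and 12.4% in normal-RNA embryos. Cnp (ENSMUSG00000006782), an enzyme of the myelin cytoplasm, had a CHG region in an exon and CpG island near its start (chromosome 11, 100576553 to 100576649, 11 cytosines), at 1.44% in depressed-RNA embryos against 26.2% in normal-RNA embryos. Mag (ENSMUSG00000036634), the myelin-associated glycoprotein that faces the axon, had the sole CHG region of the markers that was higher. Its 1 region, of 6 CHG cytosines in an exon (chromosome 7, 30907047 to 30907127), was at 29.1% in depressed-RNA embryos and 0.638% in normal-RNA embryos. Mal and Mog had no listed region.

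Of the other oligodendrocyte genes, Qk and Trf had regions. Qk (ENSMUSG00000062078), whose RNA-binding protein quaking guides the splicing and transport of myelin transcripts, had a CHH region in its 3′ UTR (chromosome 17, 10209086 to 10209397, 51 cytosines) at 0.664% in depressed-RNA embryos against 17.3% in normal-RNA embryos. An intronic CHH region of Qk (10254647 to 10254858, 113 cytosines) was higher, at 4.21% in depressed-RNA embryos and 0.677% in normal-RNA embryos. Trf (ENSMUSG00000032554), the iron carrier transferrin, had 1 region, a higher intronic CHH region (chromosome 9, 103214152 to 103214306, 84 cytosines) at 8.51% in depressed-RNA embryos against 0.408% in normal-RNA embryos. This was the 1 region of the 46 that also named another gene, the predicted gene Gm20425. The lineage transcription factors Olig1, Olig2 and Sox10, the galactolipid synthesis gene Ugt8a, and Ermn, Bcas1, Cryab, Ptgds and Apod had no listed region.

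Levels of the markers' lower regions can be set beside those of all lower regions. Their 21 lower CHG regions had a median of 0.366% in depressed-RNA embryos and 36.6% in normal-RNA embryos, compared with 0.174% in depressed-RNA embryos and 30.9% in normal-RNA embryos for the 1588 lower CHG regions at any named gene. The 17 lower CHH regions had medians of 0.538% in depressed-RNA embryos and 34.5% in normal-RNA embryos, compared with 0.625% in depressed-RNA embryos and 25.7% in normal-RNA embryos for 1227 lower CHH regions at named genes. By cell type, CHG medians were 0.675% in depressed-RNA embryos and 39.5% in normal-RNA embryos for astrocyte markers (12 regions), and 0.128% in depressed-RNA embryos against 26.5% in normal-RNA embryos for oligodendrocyte markers (9 regions). Their levels in normal-RNA embryos overlapped, from 21.8 to 58.6% at astrocyte and from 11.8 to 60.4% at oligodendrocyte markers, and no test was made between them.

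In CHH context the direction of the markers' regions differed from that of the list. Of 23 CHH regions, 17 were lower (73.9%), while 29.98% of the 4093 CHH regions at named genes and 20.4% of all 6943 were lower. In CHG context 21 of 22 were lower (95.5%), against 91.1% at named genes. These shares describe the list, since regions of 1 gene and overlapping contexts come from the same embryos. Slc1a2 gave 4 and Mobp 3 of the 17 lower CHH regions. The lean was not particular to glial markers. Of 30 reference genes, 11 had a lower CHG or CHH region and 0 a higher CHH region. These counts were 16 and 6 of 30 neuron genes and 4 and 3 of 25 blastocyst genes. They were 2 and 2 of 20 microglia, 7 and 10 of 40 further glial, and 1 and 2 of 20 endothelial and mural genes.

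**Figure D2:**
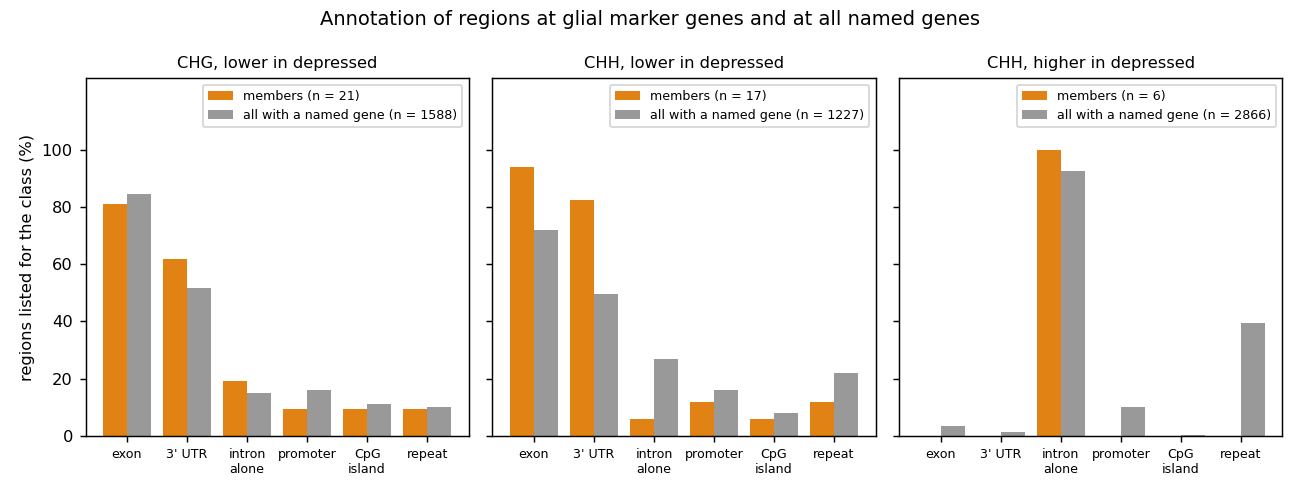
Percent of regions listed for each annotation class (vertical axis), for the members' regions and for all regions with a named gene, in lower CHG, lower CHH and higher CHH regions; a region can be listed for several classes, and intron alone means no exon or UTR. The members' lower CHH regions were listed for a 3′ UTR at 82.4%, against 49.6% of all with a named gene, and all 6 higher CHH regions lay in introns.

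Lower regions at the markers lay mostly in exons and 3′ UTRs. An exon or UTR was listed for 17 of 21 lower CHG regions (81.0%, against 84.6% at named genes) and 3′ UTRs for 13 (61.9%, against 51.5%). Of 17 lower CHH regions, 16 lay in an exon or UTR (94.1%, against 71.9%) and 14 touched a 3′ UTR (82.4%, against 49.6%). The 5 lower regions in introns alone were those of Ptn, the intronic one of Slc1a2 and 3 of Mbp. The 6 higher CHH regions shared another profile: all lay in introns alone (92.8% of higher CHH regions at named genes did), 0 were listed for a repeat (39.3% at named genes), and their median levels were 5.26% in depressed-RNA embryos and 0.696% in normal-RNA embryos. These 5 genes had a median length of 110547 bp.

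Along the genes, most of the lower regions with a given strand lay toward the 3′ end. The strand was given for 12 markers with 28 lower regions, and in 24 of these the midpoint lay within 10 kb of the gene's annotated 3′ end, at a median distance of 1343 bp over all 28. These were 85.7%, against 57.5% of 2856 lower regions at all protein-coding genes with a strand. In 19 (67.9%) the midpoint lay in the last 10% of the gene, against 39.7% of those 2856. Cst3, Gfap and Ntsr2 are shorter than 10 kb, and among genes over 10 kb the share within 10 kb was 19 of 23 (82.6%), against 50.8% of 2441 regions. Slc1a2 and Mobp gave 15 of the 28 regions, and without them 9 of 13 (69.2%) lay in the last 10%. Overlapping CHG and CHH regions of the same stretch each count among the 28. Counted by gene, 9 of 12 markers (75.0%) had a lower region there, against 42.0% of 1740 genes. The markers had more lower regions per gene (28 at 12 markers, against 2856 at 1740 genes). A gene with more regions is more easily counted, and this was not adjusted for. These backgrounds include CG regions, while the markers' regions, but for the CG region of Mobp, were CHG or CHH. In CHG and CHH alone, the share within 10 kb was 85.2%, against 63.5% of 2335 regions. That in the last 10% was 66.7%, against 45.4%. Among genes over 10 kb, the share within 10 kb was 81.8%, against 57.0%. By gene, 75.0% of markers had such a region in the last 10%, against 48.1%. Among these 28 regions, the exceptions nearest the start were the intronic region of Ptn, the exonic one of Cnp and the intronic one of Slc1a2. No strand was given for Atp1b2, Mbp and Sparcl1, so that their lower regions were left out. These include the CHG and CHH regions of Atp1b2 at its transcription start and the intronic ones of Mbp.

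**Figure D3:**
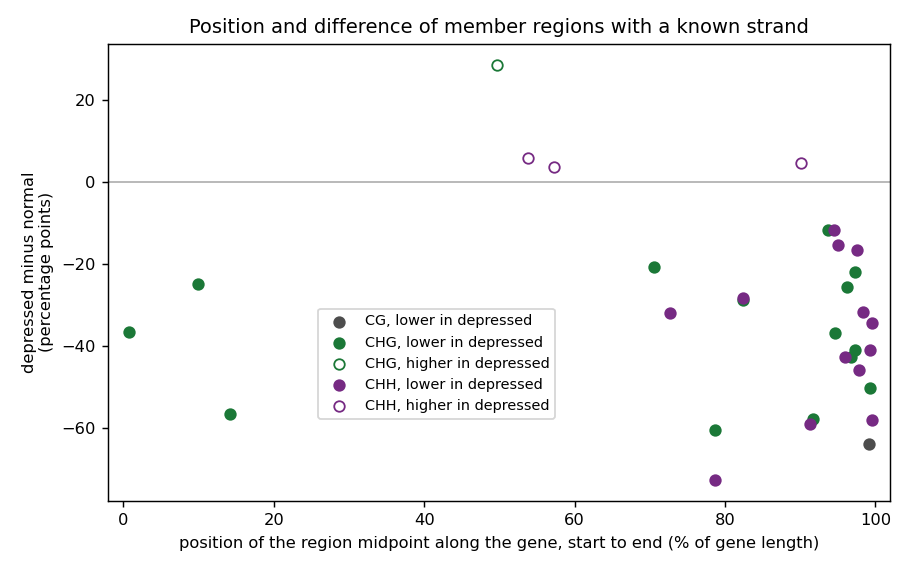
Midpoint of each region along its gene, from the start to the end of the RefSeq span (percent of gene length, horizontal axis), against depressed minus normal (percentage points, vertical axis), for the members with a given strand; filled points are lower and open points higher in depressed-RNA embryos. Of 28 lower regions, 19 lie in the last 10% of the gene.

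Where CHG and CHH regions overlapped, their levels went together, as in all overlapping lower pairs of the list. Of 21 lower CHG regions 12 overlapped a CHH region (57.1%, against 48.9% at named genes), all in the same direction, and of 17 lower CHH regions 12 overlapped a CHG region (70.6%, against 58.4%). In these 12 pairs, at 8 genes, levels ran from 0.0386 to 1.24% in depressed-RNA embryos and from 11.8 to 72.8% in normal-RNA embryos. The CHG and CHH levels of normal-RNA embryos differed by a median of 3.92 percentage points, against 4.08 in all 840 overlapping lower pairs. They differed by 5 or less in 7 of the 12 pairs. The pair of Slc1a2 at 102784845 to 102785977 differed most, with 26.4% in CHG and 42.7% in CHH, and its CHH region is the longer one. Across the 12 pairs the levels of normal-RNA embryos had a Spearman's rho of 0.839 and a Pearson's r of 0.857, as a description. All 840 overlapping lower pairs of the list had 0.871 and 0.865. Both contexts of a pair, and all pairs, share the same libraries.

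**Figure D4:**
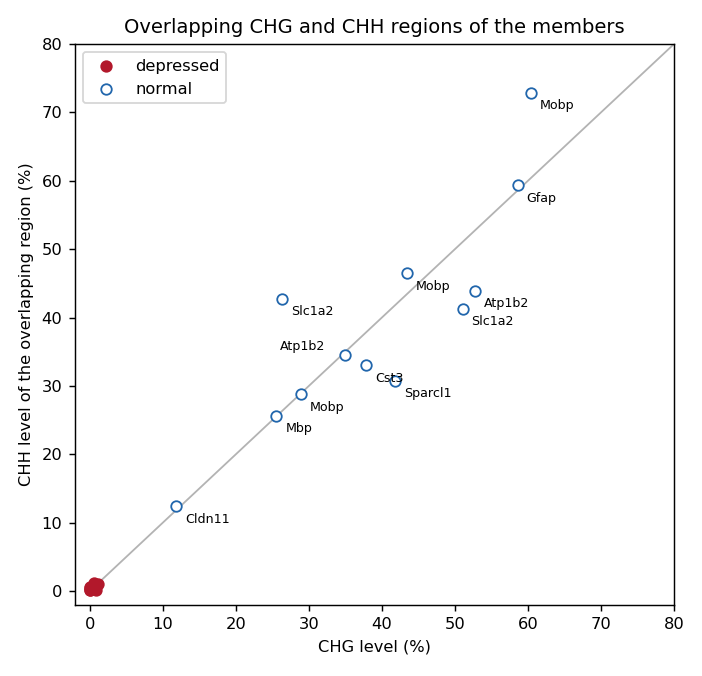
Level of 12 CHG regions (percent, horizontal axis) against that of the overlapping CHH region (percent, vertical axis) in depressed-RNA embryos (filled) and in normal-RNA embryos (open, with gene names); the line marks equal levels. Depressed-RNA embryos sit at or below 1.24% in both contexts, and normal-RNA embryos spread along the line from Cldn11 at about 12% to Mobp.

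Other glial genes and markers of other cell types were counted the same way. Over all protein-coding genes, 5.98% had a lower CHG or CHH region in an exon or UTR and 9.11% a higher CHH region. Of 40 further astrocyte, oligodendrocyte and precursor genes, 6 (15.0%) had a lower CHG or CHH region in an exon or UTR (medians 0.575% in depressed-RNA embryos and 30.6% in normal-RNA embryos), and 10 (25.0%) a higher CHH region. Genes of these lists are named by the absolute value of the authors' region statistic, which is 307 or more in every CHH region but has a median of -58.1 in lower CHG regions, so that CHH regions tend to come first even where their difference is small. By it, the glial list was led by higher intronic CHH regions of Pdgfra, the growth factor receptor of oligodendrocyte precursors (4.39% in depressed-RNA embryos against 0.487% in normal-RNA embryos), and of Tcf7l2, a Wnt effector (4.86% in depressed-RNA embryos and 0.871% in normal-RNA embryos). Of 30 neuron genes, 15 (50.0%) had a lower region in an exon or UTR, above the 33.3% of the glial markers. The list was led by a CHH region at 3.60% in depressed-RNA embryos against 28.7% in normal-RNA embryos that is listed for both neurofilament genes Nefl and Nefm. Of 20 microglia genes 1 (5.00%) had such a region, Olfml3 (3.40% in depressed-RNA embryos and 25.8% in normal-RNA embryos), and of 20 endothelial and mural genes 0. In lists of 20 genes, both counts are near the 5.98% of all protein-coding genes. The microglia list was led by Tmem119, a microglial membrane protein gene (promoter, CHH, 37.03% in depressed-RNA embryos against 59.6% in normal-RNA embryos). The vessel genes were led by a higher CHH region of Pdgfrb (8.25% in depressed-RNA embryos against 0.638% in normal-RNA embryos) and of Pecam1 (5.23% in depressed-RNA embryos and 0.608% in normal-RNA embryos). The median gene length was 33938 bp for neuron, 26713 bp for endothelial and mural and 12163 bp for microglia genes, and no test was made between lists.

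**Figure D5:**
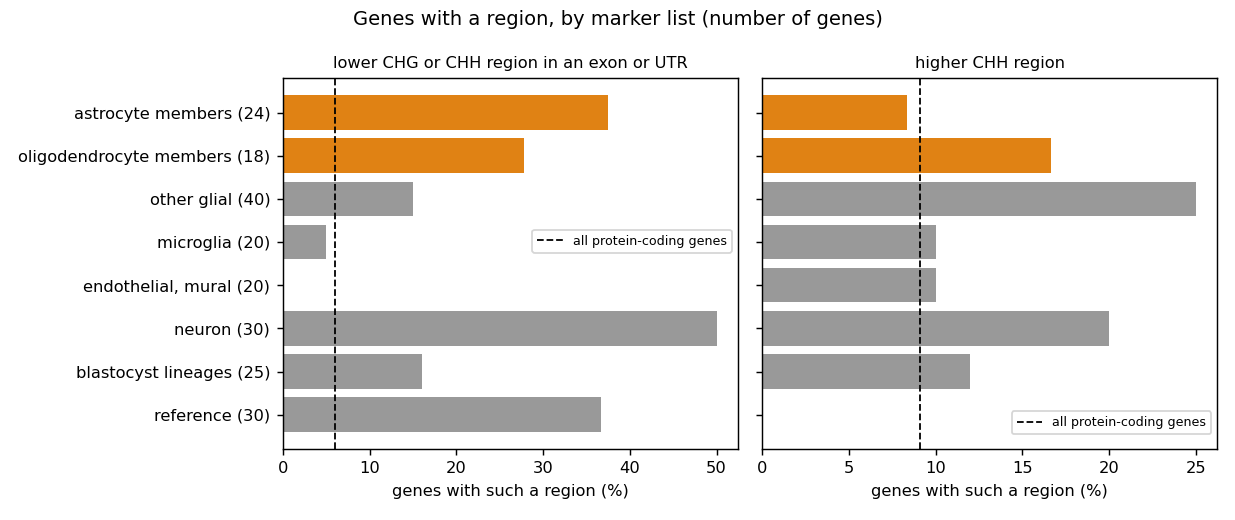
Percent of genes of each list (number of genes in brackets) with a lower CHG or CHH region in an exon or UTR (left) and with a higher CHH region (right); dashed lines mark all protein-coding genes, 5.98% and 9.11%. The left bars run from 0 for endothelial and mural genes to 50.0% for neuron genes, with astrocyte markers at 37.5% and oligodendrocyte markers at 27.8%.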

How the data were processed

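The deposited table lists the authors' differentially methylated regions. Each has the mean methylation of both groups as a fraction, their difference, a region statistic (a score) and the count of cytosines, per the file headers. Statistic and difference had opposite signs in 0 member regions and in 2 of all 9707, both lower CHH regions. Trim Galore 0.3.3, Bismark, SAMtools and the build mm10 are named, per the submitters' processing notes. The region caller, its thresholds, any coverage filter and the way embryos were combined: not given in the sources used here. Depth is unknown.

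With Python 3.11.15 and pandas 2.3.3, 18732 entries were collapsed to 9707 regions by position and context, and fractions were turned into percent. The deposited difference matched depressed minus normal within 1e-09. Overlap meant at least 1 bp. Of 4040 gene names, 3981 matched RefSeq symbols or unique synonyms, as did all 42 markers. The collapsing step was checked on a made table. Counts and medians are given beside all genes or regions, and 7 alternatives were tried. Members and lists were chosen with earlier results of these data known. All members with a region are named, and of each other list the 2 genes with the largest absolute statistic. One such gene is not reported here.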

Additional observations from a re-analysis of the deposited data

How the results depend on the processing

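No paired analysis was possible because the table holds group means alone, and for the same reason no embryo could be left out. Each of the 7 alternatives kept some or all of the regions with their levels unchanged, so that no region could change direction. No median difference changed sign. Members with a lower CHG region numbered 7 of 42 (16.7%, against 3.56% of protein-coding genes) when only regions with an absolute statistic at or above the median of their context were kept. The share of lower CHG regions was then 100%, as it was with at least 10 cytosines. The share of lower CHH regions was 100% with differences of at least 20 percentage points and with exon or UTR regions alone. Members with a CG region numbered 0 with at least 10 cytosines and 0 without chromosomes 9 and 10, where Mobp lies, and no CG share or median could be given there. Each share of 100% arose because the cut removed every higher region of that context. The 6 higher CHH regions lay in introns alone and differed by at most 8.10 percentage points. The other changes follow from fewer regions being kept. Every member region overlapped the RefSeq span of its gene, so that a limit of 10 kb could remove none, and members with a region stayed at 17. With regions naming 1 gene they numbered 16. Depth is unknown, so that levels from few cytosines, such as the 6 of Mag, Gpm6b and Ptn, cannot be weighed.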

Other observations

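Genes of the blastocyst itself and reference genes, which most cells express, were counted like the glial markers. Of 25 genes that mark the inner cell mass, trophectoderm or primitive endoderm, 4 (16.0%) had a lower CHG or CHH region in an exon or UTR and 3 (12.0%) a higher CHH region. Over all protein-coding genes these shares were 5.98% and 9.11%, so that the second is near that of all genes. Their lower regions had medians of 0.705% in depressed-RNA embryos and 26.3% in normal-RNA embryos. The 4 were Krt8 and Krt18, keratins of the trophectoderm, Sox2 and Tfcp2l1, named after their values were seen. By the authors' region statistic, which is not comparable between contexts, that list was led by higher intronic CHH regions of Pdgfra, a primitive endoderm marker that also stands in the glial list (4.39% in depressed-RNA embryos against 0.487% in normal-RNA embryos), and of Tead4 (6.14% in depressed-RNA embryos against 1.44% in normal-RNA embryos). Of 30 reference genes, 11 (36.7%) had a lower region in an exon or UTR, near the 33.3% of the glial markers, and 0 a higher CHH region. Their median length was 5623 bp. Actb (2.64% in depressed-RNA embryos against 47.3% in normal-RNA embryos) and Tubb5 (2.31% in depressed-RNA embryos against 67.2% in normal-RNA embryos) had the largest absolute statistic, both in CHH context.

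Of the 25 markers without a listed region, 0 had a region of any kind inside their RefSeq span, and 1 had one within 10 kb. That was Olig1, with a higher CHH region in a repeat 9214 bp away (10.8% in depressed-RNA embryos against 0.463% in normal-RNA embryos).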
